A study of Mus musculus with 6 samples.

Results

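Tight junction genes were described in BC44, HC11 and C57MG, 3 established cell lines from the mouse that are labelled mammary epithelial. The members were named by symbol: the claudins Cldn1, Cldn3, Cldn4 and Cldn7, the other membrane genes Ocln and F11r, and the scaffold genes Tjp1, Tjp3 and Cgn. Of these 9 members 7 were among the 11417 genes of the deposited table, and Cldn7 and Tjp3 were not listed and are not analysed here. Poly(A) RNA of each line was sequenced as 2 libraries, 6 in all, and levels are given in RPKM, that is, reads divided by the length of the gene in kilobases and scaled to 1000000 reads, so that levels of different genes can be set side by side. All lines were untreated and grown on plastic in 10% serum, and RNA was taken 2 days after plating. BC44 was kept in RPMI with 5 µg/ml insulin, HC11 likewise but with EGF (epidermal growth factor, 10 ng/ml) added, and C57MG in DMEM with 10 µg/ml insulin. Each group is 1 line in its own medium, so line and medium cannot be told apart. Nothing in the labels says that the 2 libraries of a line came from separate cultures, and p-values then measure the spread between these libraries only, which may be technical.

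Tight junctions are the belts of contact nearest the free surface of an epithelial sheet, where they limit the passage of ions and solutes between neighbouring cells. Claudins span the membrane and line the contact, and the set of claudins a cell makes sets which ions pass. Occludin (Ocln) and junctional adhesion molecule A (F11r) are further membrane proteins of the contact. The zonula occludens proteins ZO-1 (Tjp1) and ZO-3 (Tjp3) bind the tails of claudins from inside the cell and tie them to actin, and cingulin (Cgn) binds the ZO proteins and the actomyosin cortex. In the mammary gland tight junctions between luminal cells close around the onset of lactation and keep milk components apart from the blood.

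The sequence before the gene start is shown for the members whose levels set the pattern below: Cldn3 and its neighbour Cldn4, F11r and Cgn, and Tjp1. Cldn3 (plus strand) and Cldn4 (minus strand) lie 39279 bases apart on chromosome 5. Each window holds the 250 bases before the RefSeq start of the gene (build GRCm38.p6), read 5′ to 3′ on the gene's strand. The windows are chr5:134985964-134986213 (plus strand) for Cldn3, chr5:134946935-134947184 (minus) for Cldn4, chr1:171437311-171437560 (plus) for F11r, chr3:94786483-94786732 (minus) for Cgn and chr7:65371245-65371494 (minus) for Tjp1. Capitals mark matches to CAGGTG, the E-box core bound by Snail and Zeb factors, or to AACCNGTT, a Grainyhead-like motif, on either strand.
Cldn3: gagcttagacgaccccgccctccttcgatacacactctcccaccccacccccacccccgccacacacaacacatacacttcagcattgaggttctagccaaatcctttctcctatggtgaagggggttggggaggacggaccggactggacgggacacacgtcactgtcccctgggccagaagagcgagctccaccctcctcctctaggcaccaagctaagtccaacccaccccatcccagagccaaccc
Cldn4: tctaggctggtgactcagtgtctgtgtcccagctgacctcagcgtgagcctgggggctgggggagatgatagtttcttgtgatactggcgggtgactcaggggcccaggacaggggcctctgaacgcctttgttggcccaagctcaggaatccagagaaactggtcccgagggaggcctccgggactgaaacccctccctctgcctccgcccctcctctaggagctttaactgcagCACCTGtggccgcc
F11r: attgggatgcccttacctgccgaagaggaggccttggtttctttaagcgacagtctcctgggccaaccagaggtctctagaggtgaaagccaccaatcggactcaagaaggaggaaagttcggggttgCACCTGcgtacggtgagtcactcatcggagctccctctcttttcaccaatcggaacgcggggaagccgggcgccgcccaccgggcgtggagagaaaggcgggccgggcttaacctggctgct
Cgn: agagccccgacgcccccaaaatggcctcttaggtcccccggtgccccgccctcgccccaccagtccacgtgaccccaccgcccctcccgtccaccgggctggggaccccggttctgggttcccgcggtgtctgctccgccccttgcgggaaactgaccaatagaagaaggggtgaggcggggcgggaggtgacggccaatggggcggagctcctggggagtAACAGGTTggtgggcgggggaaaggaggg
Tjp1: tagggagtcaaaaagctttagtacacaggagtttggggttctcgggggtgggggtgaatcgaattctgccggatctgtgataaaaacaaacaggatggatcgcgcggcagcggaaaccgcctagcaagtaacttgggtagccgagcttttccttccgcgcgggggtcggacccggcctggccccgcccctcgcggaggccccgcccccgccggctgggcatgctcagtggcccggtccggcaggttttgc

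Motifs were searched on both strands: the E-box core CAGGTG, the Grainyhead-like AACCNGTT with its strict form AACCGGTT (each match of which also matches the looser one), the TATA box TATAAA, and the Sp1 box GGGCGG. The E-box core occurred once in the Cldn4 window, beginning 14 bases before the start, and once in the F11r window, 122 bases before it, both on the opposite strand. CAGGTG was found in 17.2% of the 32851 mouse windows of the same length. The Cgn window held 1 match to AACCNGTT, read as AACAGGTT on the gene's strand and beginning 29 bases before the start, and 1.79% of all windows held one. The strict form AACCGGTT, present in 0.116% of windows, and TATAAA, present in 12.4%, occurred in none of the 5. GGGCGG occurred 6 times in the Cgn window, 2 times in the Tjp1 window and once in each of the Cldn3, Cldn4 and F11r windows, where 32.7% of all windows held it. The G and C content was 70.4% for Cgn, 63.2% for Tjp1, 62.0% for Cldn4, 60.8% for Cldn3 and 60.0% for F11r, against a median of 52.4% over all windows. These are matches of letters only. Tjp1 also has an annotated start farther upstream in GENCODE M21, which this window does not cover.

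The depth behind the values was estimated from the steps of the low values at 14280000 to 18540000 reads per library. The label "mammary epithelial" was checked against markers. Epcam was at 92.1 to 242 RPKM and Cdh1, the epithelial cadherin, at 107 to 137 RPKM in the BC44 and HC11 libraries. In C57MG Epcam was at 0.949 RPKM in replicate 1 and listed at 0 in replicate 2, and Cdh1 at 1.09 RPKM and 0. Of the 8 epithelial markers 7 were listed, with summed levels of 4776 to 4983 RPKM in BC44, 2191 to 3041 in HC11 and 65.5 to 136 in C57MG. The 8 listed of 10 fibroblast or mesenchymal markers summed to 253 to 295 RPKM in BC44, 207 to 294 in HC11 and 3312 to 3654 in C57MG. The list was not uniform within a line. In C57MG the basal keratin Krt14 was at 118 and 64.8 RPKM, most of the sum, and Krt5 at 16.0 and 0.148 RPKM, while Epcam, Cdh1 and the luminal keratins Krt7, Krt8 and Krt18 were each at 1.09 RPKM or less. In BC44 Krt5 and Krt14 were at 1828 to 2736 RPKM, and Krt7, Krt8 and Krt18 at 0.078 RPKM or less. All 7 were above 49 RPKM in HC11. Of the other lists, 2 of 6 endothelial, 1 of 6 leukocyte and 1 of 4 adipocyte markers were listed, with summed levels of at most 2.38, 31.9 and 8.77 RPKM in any library. The 1 listed leukocyte marker, Cd14, was at 19.6 and 31.9 RPKM in HC11, 10.1 and 11.1 in C57MG and 1.87 and 1.90 in BC44, while Ptprc, the general leukocyte marker, was not listed. In these bulk libraries fewer cells that express a gene and less RNA per cell cannot be told apart.

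Tjp1 lay between 25.9 and 35.1 RPKM in all 6 libraries, whereas the claudins set the lines apart. Cldn3 was found in HC11 alone, Cldn4 was highest in HC11, and Cldn1 was highest in BC44. F11r and Cgn were present in BC44 and HC11 and were at or below 1% of the BC44 mean in each C57MG library.

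**Figure D1:**
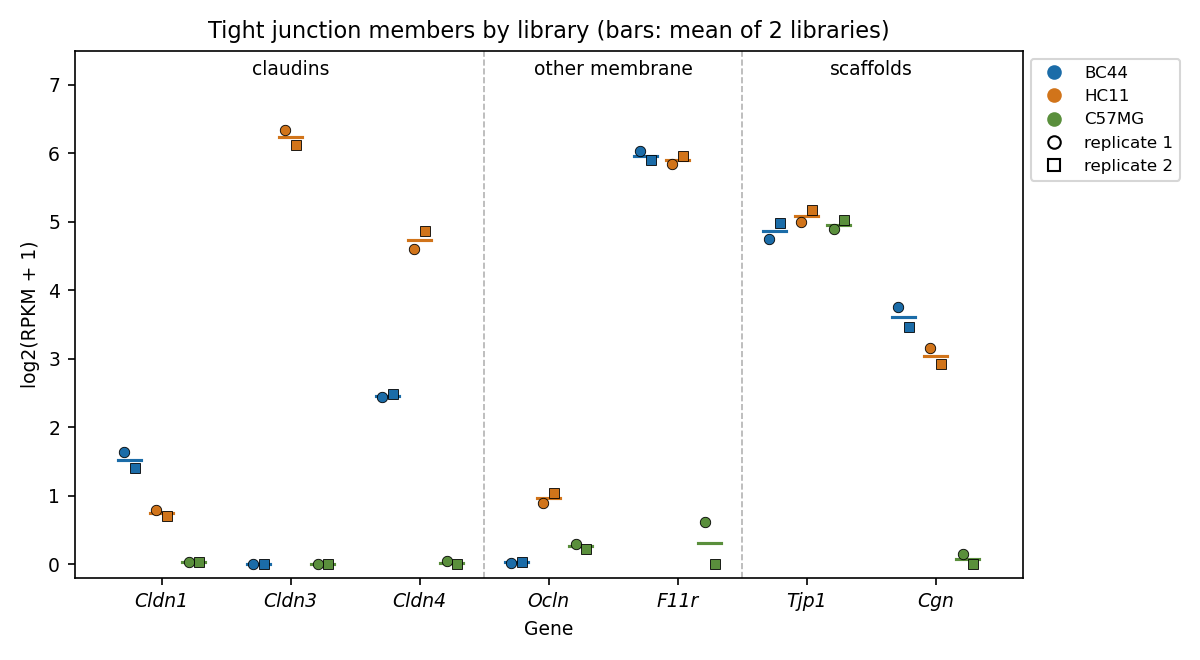
Level of each listed member in every library, as log2(RPKM + 1) on the vertical axis, with genes grouped by role on the horizontal axis, circles for replicate 1, squares for replicate 2 and a bar at the mean of the 2 libraries. Tjp1 lies near 5 in every line, whereas Cldn3 is above 6 in HC11 and at 0 in BC44 and C57MG, and F11r is near 6 in BC44 and HC11 and under 1 in C57MG.

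The claudins are the members that seal or open the contact. Cldn3 (ENSMUSG00000070473, chromosome 5, 134986214 to 134987472, GRCm38, 1 exon) encodes a claudin of tight, sealing junctions. Its level was 80.4 and 68.9 RPKM in HC11 replicates 1 and 2, and it was listed at 0 in both BC44 and both C57MG libraries. The line mean of HC11 was 74.6 ± 8.14 RPKM (SD, n = 2), above 92.8% of listed genes in that line, on an estimated 1876 and 1238 reads. With a floor of 3 estimated reads per library, Cldn3 was at least 421-fold higher in HC11 than in BC44 and at least 443-fold higher than in C57MG. The difference was 6.24 on the log2(RPKM + 1) scale in both contrasts (SE 0.11, limma adjusted p-values 2.64e-07 and 1.08e-07), and 9.54 with a pseudocount of 0.1 in place of 1. Cldn3 passed the filter on low values only through HC11, so it had to differ. An unlisted antisense gene, Wbscr25, shares 40 exonic bases with Cldn3.

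Cldn4 (ENSMUSG00000047501, chromosome 5, 134945119 to 134946934, GRCm38, 1 exon) encodes another claudin of tight junctions, which also limits the passage of cations. It was at 23.2 and 28.2 RPKM in HC11, at 4.42 and 4.59 RPKM in BC44, and at 0.031 RPKM and 0 in C57MG replicates 1 and 2. No libraries of different lines overlapped, and the order was HC11, BC44, C57MG. The C57MG value of replicate 1 corresponds to 1 estimated read. The HC11 mean of 25.7 ± 3.5 RPKM was 5.71 times the BC44 mean of 4.51 ± 0.121 RPKM (SD, n = 2 each). Corrected for depth, BC44 had 274 times the reads of C57MG, with a 95% exact interval of 48.7 to 10900 that covers counting error only. On the log2(RPKM + 1) scale Cldn4 was 2.27 lower in BC44 than in HC11 (limma difference -2.27, SE 0.12, adjusted p-value 8.62e-06). It was higher than in C57MG by 2.44 in BC44 and by 4.71 in HC11 (SE 0.12, limma adjusted p-values 1.46e-06 and 1.97e-07), and by 5.33 and 7.81 with a pseudocount of 0.1. The neighbours Cldn3 and Cldn4 were thus not both present in BC44, where Cldn4 rested on an estimated 117 and 146 reads and Cldn3 on none.

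Cldn1 (ENSMUSG00000022512, chromosome 16, 26356642 to 26371841, GRCm38) encodes a claudin that epithelial barriers such as that of the skin require. Its level was low in every line, at 2.11 and 1.64 RPKM in BC44, 0.730 and 0.623 RPKM in HC11, and 0.017 and 0.020 RPKM in C57MG. BC44 was the highest line for this claudin, the reverse of the order seen for Cldn4 between BC44 and HC11, and the libraries of different lines did not overlap. The BC44 mean of 1.87 ± 0.329 RPKM (SD, n = 2) lay above 19.6% of listed genes only. The C57MG values correspond to 1 estimated read each. The BC44 mean was 101 times that of C57MG, and the 95% exact interval of the ratio of reads was 27.4 to 836, for counting error only. The limma differences were 0.77 for BC44 against HC11, 1.49 for BC44 against C57MG and 0.72 for HC11 against C57MG (SE 0.11, adjusted p-values 0.00101, 1.16e-05 and 0.000683). Cldn1 passed the filter only through BC44, so it had to differ in the contrasts with BC44. The filter did not fix the contrast of HC11 with C57MG. Its difference depended on the scale: it was 1.34, 4.05 and 2.71 with a pseudocount of 0.1, and the last was 0.33 (adjusted p-value 0.0463) after quantile normalization. Claudin genes have related sequences, and how shared reads were assigned is not given in the sources used here.

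Of the other membrane genes, F11r was abundant and Ocln was scarce. F11r (ENSMUSG00000038235, chromosome 1, 171437535 to 171464603, GRCm38), an immunoglobulin-type adhesion protein of the junction, was at 64.3 and 58.8 RPKM in BC44, 56.5 and 61.7 RPKM in HC11, and 0.540 RPKM and 0 in C57MG. The BC44 and HC11 libraries overlapped, and both C57MG libraries lay below all of them. In both of these lines F11r ranked above 90% of listed genes (90.8% in BC44 and 90.6% in HC11). The difference between BC44 and HC11 was 0.06 (SE 0.19, 95% interval -0.38 to 0.50, limma adjusted p-value 0.824), and its direction changed without BC44 replicate 1 (-0.006) or HC11 replicate 1 (-0.005). F11r was higher than in C57MG by 5.65 in BC44 and by 5.60 in HC11 (SE 0.19, limma adjusted p-values 3.05e-07 and 3.62e-07).

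Ocln (ENSMUSG00000021638, chromosome 13, 100496507 to 100552718, GRCm38) reached 1 RPKM in 1 library only and was not tested. It was at 0.854 and 1.06 RPKM in HC11, 0.223 and 0.169 RPKM in C57MG, and 0.016 and 0.027 RPKM in BC44. BC44 was thus the lowest line for Ocln, and no libraries of different lines overlapped. These levels rest on an estimated 67 and 64 reads in HC11, 17 and 11 in C57MG, and 1 and 2 in BC44. Per depth C57MG had 8.96 times the Ocln reads of BC44 (95% exact interval 2.77 to 46.1), and HC11 had 42.7 times (14.3 to 210), for counting error only. Without the filter on low values the limma differences were -0.94 for BC44 against HC11, -0.23 for BC44 against C57MG and 0.71 for HC11 against C57MG (adjusted p-values 0.000106, 0.0327 and 0.000161). Ocln is the one listed member whose level in C57MG lay above that of BC44 without overlap.

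Of the scaffold genes Cgn differed between all lines, and Tjp1 passed in no contrast. ZO-1 is made by many cell types and is found at other contacts too. Tjp1 (ENSMUSG00000030516, chromosome 7, 65296165 to 65527781, GRCm38) was at 25.9 and 30.6 RPKM in BC44, 30.9 and 35.1 RPKM in HC11, and 28.8 and 31.5 RPKM in C57MG. BC44 overlapped C57MG, C57MG overlapped HC11, and the HC11 libraries lay just above those of BC44. The means were 28.2 ± 3.34, 33.0 ± 2.97 and 30.2 ± 1.92 RPKM in BC44, HC11 and C57MG (SD, n = 2 each), above 78.2% to 81.3% of listed genes. The limma differences were -0.22 for BC44 against HC11 (95% interval -0.48 to 0.04), -0.10 for BC44 against C57MG (-0.36 to 0.16) and 0.12 for HC11 against C57MG (-0.14 to 0.38). Their adjusted p-values were 0.143, 0.457 and 0.346. The second of these changed direction without BC44 replicate 1 (0.02). The intervals allow at most a log2 difference of 0.48 in size between any of the lines.

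Cgn (ENSMUSG00000068876, chromosome 3, 94760069 to 94786492, GRCm38) was at 12.5 and 10.0 RPKM in BC44, 7.91 and 6.61 RPKM in HC11, and 0.111 RPKM and 0 in C57MG. BC44 lay above HC11 and both lay above C57MG, with no overlap. The BC44 mean was 11.3 ± 1.73 RPKM and the HC11 mean 7.26 ± 0.922 RPKM (SD, n = 2 each), a ratio of 1.55. Against C57MG the limma differences were 3.53 for BC44 and 2.97 for HC11 (SE 0.14, adjusted p-values 5.62e-07 and 1.51e-06), and 6.28 and 5.66 with a pseudocount of 0.1. Between BC44 and HC11 the difference was 0.57 (SE 0.14, adjusted p-value 0.0137). That call was lost with a pseudocount of 0.1 (0.62, adjusted p-value 0.188), without BC44 replicate 1 (0.42, 0.0886) and without HC11 replicate 2 (0.45, 0.0730).

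**Figure D2:**
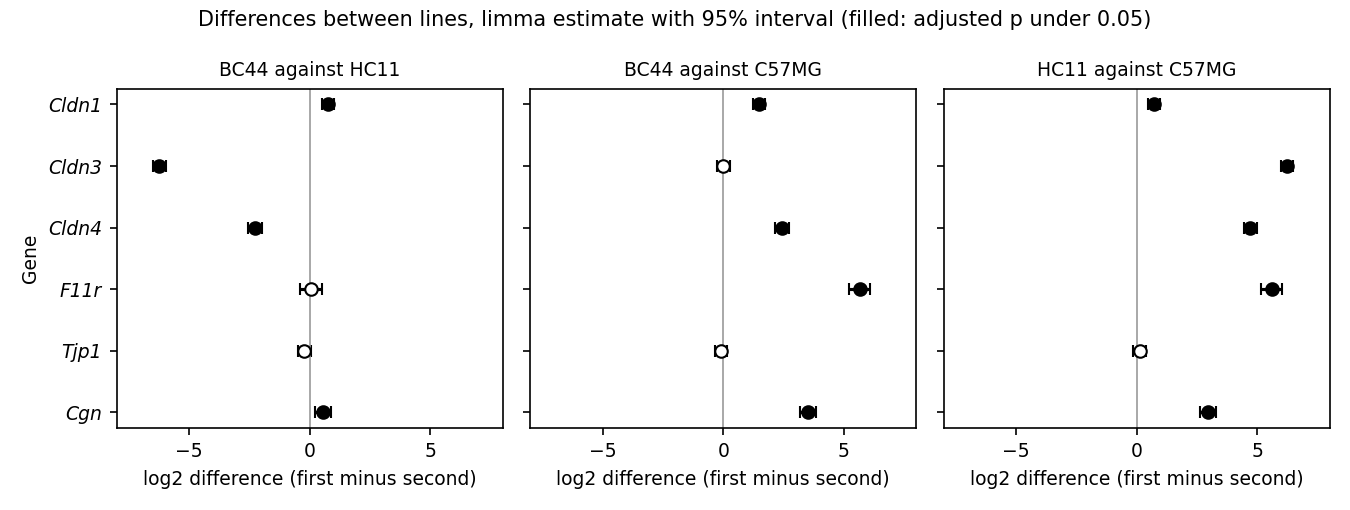
Difference between lines for the 6 tested members, with the limma estimate on the log2(RPKM + 1) scale on the horizontal axis, its 95% interval as a bar and filled circles for adjusted p-values under 0.05. Tjp1 is open in all 3 panels, while Cldn4 lies left of 0 for BC44 against HC11 (-2.27) and right of 0 in both contrasts with C57MG.

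The 2 C57MG libraries differed for F11r and Cgn, on an estimated 26 and 12 reads in replicate 1 and 0 in replicate 2. For Cldn4 the difference was 1 estimated read against 0, and Cldn1 had 1 in each library. In replicate 1 Cldn4, F11r, Cgn and Cldn1 stood at 0.688%, 0.878%, 0.986% and 0.907% of their BC44 means. In replicate 2 Cldn4, F11r and Cgn were at 0, and Cldn1 was at 1.07%. Other genes were examined that averaged 5 RPKM or more in BC44 and were at 0 in C57MG replicate 2. By this choice replicate 1 could only be equal or higher in them, and the reverse choice was not examined. Over these 200 genes replicate 1 had a median of 0.768% of the BC44 mean (quartiles 0.554% and 0.961%). The same with HC11 as reference gave 190 genes with a median of 0.593% and wider quartiles, 0.0107% and 1.33%. Whether this low signal of many genes in replicate 1 contributes to its values for the members was not tested. Cldn3 was at 0 in both C57MG and both BC44 libraries, and its HC11 mean was 74.6 RPKM. Without C57MG replicate 1 the differences of BC44 against C57MG were 5.97 for F11r, 3.61 for Cgn and 2.46 for Cldn4, beside 5.65, 3.53 and 2.44 with it. Since these genes were at 0 in replicate 2, leaving out replicate 1 could only raise the differences. Ocln and Tjp1 stood apart from the members named here, since in both C57MG libraries they were above or near their BC44 means.

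Counted over the contrasts, 6 of the 7 listed members were tested. Between BC44 and HC11 4 members passed, where 47.7% of all 10759 tested genes did. Of these, 2 were toward BC44 (Cldn1 and Cgn, background 24.7%) and 2 toward HC11 (Cldn3 and Cldn4, background 23%). Libraries of BC44 and HC11 did not overlap for 5 members, 2 higher in BC44 and 3, Tjp1 included, higher in HC11, against a background of 73% of genes, made of 38.7% and 34.4%. Between BC44 and C57MG 4 members (Cldn1, Cldn4, F11r and Cgn) passed and did not overlap, all higher in BC44. The background there was 71.7% passing (37.5% toward BC44 and 34.1% toward C57MG) and 87.9% not overlapping (46.4% and 41.6%). Between HC11 and C57MG 5 members, all tested ones except Tjp1, passed and did not overlap, all higher in HC11. The background there was 70.5% passing (37.4% toward HC11 and 33.2% toward C57MG) and 86.2% not overlapping (45.1% and 41.1%). The median of the absolute log2 differences of the tested members was 0.67, 1.97 and 3.84 in these contrasts, beside 0.30, 0.57 and 0.53 over all tested genes. The contrasts share libraries and so are not independent of each other. With backgrounds this high, the number of members that passed is not read as a result about the members. Cldn3 passed the filter only through HC11 and Cldn1 only through BC44, and the members were chosen with earlier results known. The medians are thus not read as a result about the members either.

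Set against each other, the claudins and the scaffolds differed in how far they moved. The summed level of Cldn1, Cldn3 and Cldn4 was 6.53 and 6.24 RPKM in the BC44 libraries, 104 and 97.7 RPKM in HC11, and 0.048 and 0.020 RPKM in C57MG. The summed level of Tjp1 and Cgn was 38.3 and 40.6 RPKM in BC44, 38.8 and 41.7 RPKM in HC11, and 28.9 and 31.5 RPKM in C57MG. Claudin RNA thus exceeded scaffold RNA in HC11 only, among these lines. The ratio of claudin to scaffold sums was 0.162 ± 0.0119 in BC44, 2.52 ± 0.245 in HC11 and 0.00115 ± 0.000725 in C57MG (SD, n = 2 each). With geometric means and an added pseudocount of 0.1, which changes both the averaging and the offset, it was 0.0542, 0.733 and 0.0532. All 3 claudins were at 0.031 RPKM or less in C57MG, so there the added 0.1 sets the geometric claudin mean, and the nearness of the BC44 and C57MG values is not a measurement. The sums are a description and carry no test.

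The make-up of each sum also differed between lines. In HC11 Cldn3 gave 77.0% and 70.5% of the claudin sum, Cldn4 22.3% and 28.9%, and Cldn1 0.7% and 0.638%. In BC44 Cldn4 gave 67.7% and 73.7% and Cldn1 the remaining 32.3% and 26.3%. In the scaffold sum Tjp1 was the larger share in every library, at 67.5% and 75.3% in BC44, 79.6% and 84.1% in HC11, and 99.6% in C57MG replicate 1. In C57MG replicate 2 it was the whole of the sum.

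**Figure D3:**
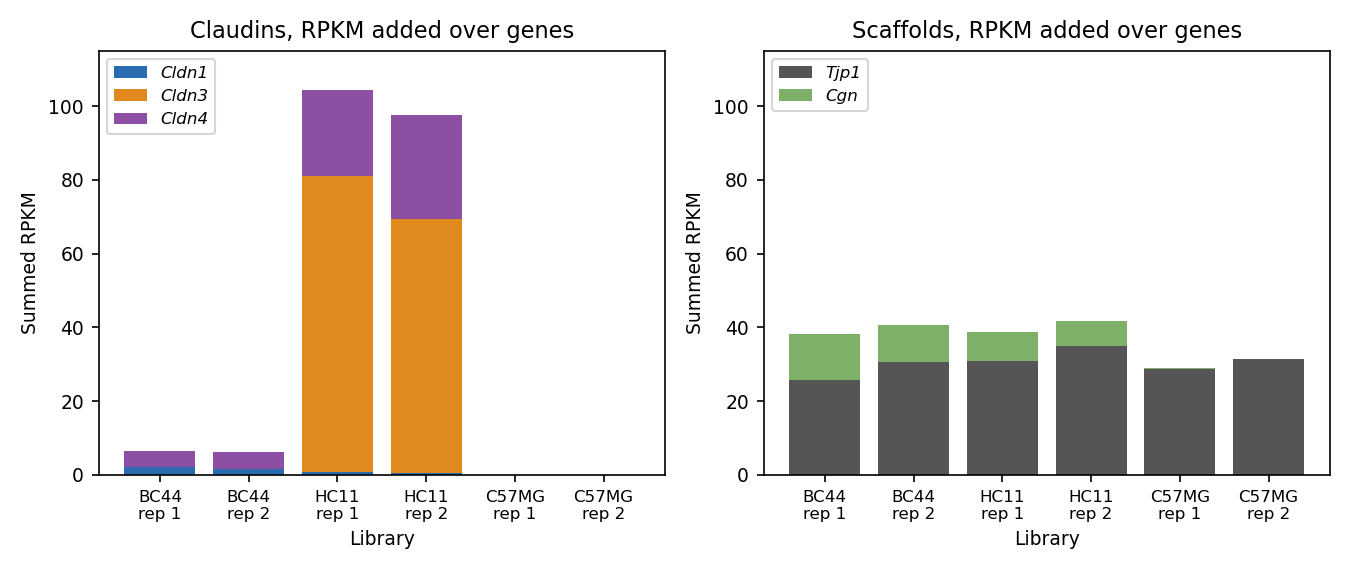
Stacked bars of RPKM added over the listed member claudins (left) and member scaffolds (right) in each library, both on the same vertical scale that starts at 0. The claudin bars reach 104 and 97.7 RPKM in HC11, 6.53 and 6.24 in BC44 and are too low to see in C57MG, while the scaffold bars stay between 28.9 and 41.7 RPKM.

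The order of the members within a line followed from these levels. In BC44 it was F11r, Tjp1, Cgn, Cldn4, Cldn1, Ocln and Cldn3, and in HC11 it was Cldn3, F11r, Tjp1, Cldn4, Cgn, Ocln and Cldn1. In both lines no neighbours in the order overlapped between libraries. In C57MG Tjp1 stood first at 30.2 RPKM, and the next, F11r at 0.27 RPKM, overlapped Ocln. Cgn, Cldn1, Cldn4 and Cldn3 followed there, and each of these overlapped its neighbour.

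The other tight junction genes were read from a list of 45, of which 25 were listed and 23 tested. Of the tested genes 6 passed toward BC44 and 11 toward HC11 when these lines were compared, and 6 did not pass, where 24.7% and 23% of all genes passed in these directions. With C57MG as the second line, 15 passed toward BC44 and 5 toward C57MG, against 37.5% and 34.1% of all genes. For HC11 and C57MG the counts were 17 and 4, against 37.4% and 33.2%. The genes higher in C57MG than in BC44 were Cgnl1, Magi1, Magi3, Mpdz and Arhgef2. Over all 23 tested genes of the list the median log2 differences in these contrasts were -0.30, 0.74 and 0.82, beside 0.02, 0.04 and 0.03 over all tested genes.

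Several membrane genes of this list were low in C57MG, as F11r was. Lsr (angulin-1), which gathers at the corners between cells, was at 55.5 and 52.0 RPKM in BC44, 68.5 and 67.0 RPKM in HC11, and 0.485 RPKM and 0 in C57MG. Against C57MG its limma differences were 5.49 in BC44 and 5.82 in HC11 (adjusted p-values 2.86e-07 and 2.56e-07). Ildr1 (angulin-2), of the same corners, was at 21.7 and 15.0 RPKM in BC44, 18.9 and 17.5 RPKM in HC11, and 0.077 RPKM and 0 in C57MG. Cxadr, the coxsackievirus and adenovirus receptor, was at 23.0 and 21.6 RPKM in BC44, 33.8 and 30.9 in HC11, and 0.184 RPKM and 0 in C57MG. Against C57MG Cxadr was higher by 4.42 in BC44 and 4.94 in HC11, and Ildr1 by 4.21 in HC11 (adjusted p-values 2.71e-07, 1.90e-07 and 6.65e-07). Each of these genes lay below all libraries of the other lines in both C57MG libraries. Of the further claudins, Cldn23 was highest in HC11, as Cldn3 was, at 6.49 and 7.28 RPKM. Cldn23 was at 0.074 and 0.093 RPKM in BC44 and 0 in both C57MG libraries. The limma difference of Cldn23 between BC44 and HC11 was -2.86 (SE 0.10, adjusted p-value 1.64e-06). Cldn23 passed the filter only through HC11 and, like Cldn3, had to differ. Cldn12, outside the rule for naming genes and chosen after its values were seen, was present in all lines, at 7.86 and 9.86 RPKM in BC44, 16.8 and 20.9 RPKM in HC11, and 10.0 and 10.3 in C57MG. Of the 5 claudins described here it was the highest in C57MG.

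Cgnl1 (paracingulin), the relative of Cgn, was at 0.087 and 0.146 RPKM in BC44, 8.31 and 10.7 RPKM in HC11, and 9.23 and 14.0 RPKM in C57MG. Its limma difference between BC44 and HC11 was -3.22 (SE 0.19, adjusted p-value 1.60e-05). HC11 was thus the only line of the 3 with more than 1 RPKM of both Cgn and Cgnl1, BC44 had Cgn, and C57MG had Cgnl1. Pard6g, of the cell polarity complex that places the junction, was at 25.9 and 23.0 RPKM in BC44, 7.73 and 6.26 RPKM in HC11, and 0.229 RPKM and 0 in C57MG. Pard6g was higher in BC44 than in HC11 by 1.67 and than in C57MG by 4.52 (limma adjusted p-values 0.000102 and 3.01e-07).

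**Figure D4:**
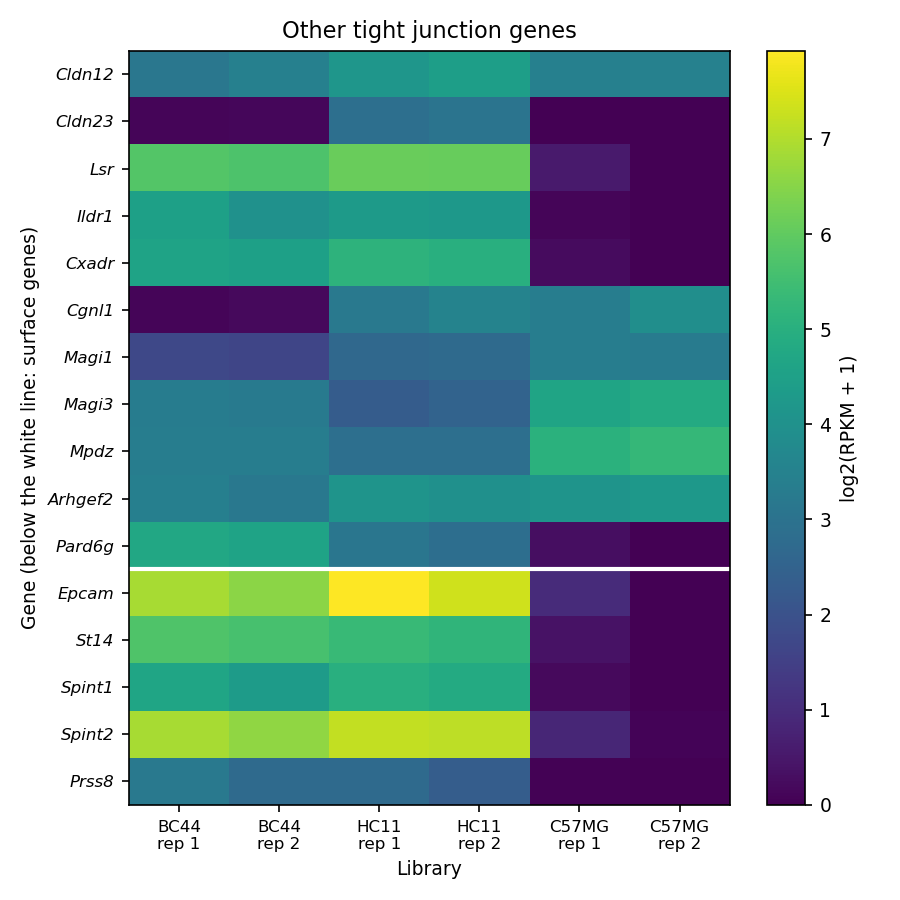
Colour map of log2(RPKM + 1) for the other tight junction genes named in the text (rows above the white line) and 5 claudin-associated surface genes (below it) in the 6 libraries (columns). Lsr, Ildr1, Cxadr and all 5 surface genes are dark in C57MG, and Cgnl1 is dark in BC44 and brighter in HC11 and C57MG.

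Claudin-associated surface genes shared the low level in C57MG. Of the 5 described, Epcam encodes a membrane protein that binds claudins, St14 (matriptase) and Prss8 (prostasin) encode membrane proteases, and Spint1 and Spint2 encode their inhibitors. All 5 were higher in both other lines than in C57MG, with limma differences of 2.95 (Prss8) to 6.29 (Spint2) for BC44 and 2.52 (Prss8) to 7.16 (Epcam) for HC11. Of all tested genes 37.5% passed toward BC44 and 37.4% toward HC11 in these contrasts. Epcam was at 118 and 92.1 RPKM in BC44 and 242 and 163 RPKM in HC11. St14 was at 52.7 and 48.5 RPKM in BC44 and 39.5 and 35.4 in HC11, and Spint1 at 24.1 and 19.4 in BC44 and 30.8 and 27.9 in HC11. The level of Spint2 was 116 and 96.2 RPKM in BC44, and 147 and 139 RPKM in HC11. Prss8 was the lowest of the 5. Its level was 8.24 and 5.63 RPKM in BC44, and 5.67 and 4.11 RPKM in HC11. Of these 5, between BC44 and HC11 1 passed toward BC44 (St14, 0.42, adjusted p-value 0.0422) and 2 toward HC11 (Epcam, -0.92, 0.0461, and Spint1, -0.42, 0.0347). Of all tested genes 24.7% and 23% passed in these directions, so these counts are not read as a result about the surface genes. In C57MG replicate 1 the 5 genes stood at 0.433% to 0.903% of their BC44 means, and in replicate 2 4 of the 5 were at 0.

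The genes nearest to each member in pattern were found by the root-mean-square difference of log2(RPKM + 1), each gene centred on its own mean, over the 6 libraries. Nearest to Cldn3 were the keratin genes Krt18, Krt7 and Krt8, at distances of 0.159, 0.273 and 0.377. Krt18 was at 88.5 and 94.1 RPKM in HC11 and at most 0.046 RPKM elsewhere, the pattern of Cldn3. Nearest to F11r were Tmem54 (0.139), Lsr (0.166) and Pitx1 (0.177), and nearest to Cgn were Tgif2 (0.062), Phyh (0.075) and Fzd1 (0.090). Cldn4 had no gene as near, with Tes at 0.326, Cd80 at 0.334 and Dusp6 at 0.348. For Cldn1 they were BC064078 (0.047), Zbtb17 (0.054) and Jak3 (0.059), for Ocln Ash2l (0.061), Wrap53 (0.062) and Tmem120a (0.065), and for Tjp1 Phf20 (0.035), Rps19bp1 (0.041) and Prrc2c (0.043). Members that vary little on this scale have near neighbours more easily. Among the members themselves the closest pair was Ocln and Tjp1 (0.322), both of which moved little on this scale. Cldn1 and Tjp1 followed (0.674), and the farthest pair was Cldn1 and Cldn3 (3.02). The correlation of the same values over the 6 libraries was 0.712 for Ocln and Tjp1 and -0.391 for Cldn1 and Tjp1. A small distance here thus does not mean a shared pattern. By correlation the closest pairs were F11r and Cgn (0.987) and Cldn3 and Ocln (0.963). No member was among the 3 genes nearest to another.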

How the data were processed

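Poly(A) RNA of 3 lines was measured in 6 libraries. The deposited table gives RPKM values, computed by the authors and rounded to 3 decimals, for 11417 genes. Per the submitters' processing notes STAR and build mm9 were used, and the counter, annotation, gene lengths and gene filter are not given in the sources used here. Symbols were matched to GENCODE M21 (GRCm38), whose coordinates are printed, and promoter windows come from RefSeq (GRCm38.p6).

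Reads were estimated from RPKM times the union of exons, for Cldn1 its protein-coding transcript, on the step at which most low values were whole (within 0.15 for 78.9% to 84.5%, against 30.0% by chance). The floor was 3 reads. Tests used log2(RPKM + 1), which understates changes of low genes, in limma 3.58.1 in R 4.3.3 (eBayes with trend), for the 10759 genes with at least 1 RPKM in at least 2 libraries. The spread was estimated over all 6 libraries together. Two-sided p-values were adjusted per contrast over all tested genes (Benjamini-Hochberg, threshold 0.05). An exact permutation test of 2 against 2 libraries cannot go below 0.33 and was not used. Summaries were made in Python 3.11.15 (scipy 1.17.1).

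The members and lists were chosen with earlier results of these data known. The text names all listed members, per contrast the 3 other tight junction genes with the largest passing difference whose libraries did not overlap, 5 claudin-associated surface genes and the 3 genes nearest to each member. Cldn12 lies outside this rule, as do Magi1, Magi3, Mpdz and Arhgef2, named as higher in C57MG than in BC44. These were named by their values. Some listed genes counted here are not reported by name. The alternatives changed the pseudocount (0.1), the filter (none, or averages from 5 RPKM up), the scaling (quantile, or median ratios), the replicate as a block, the libraries (each left out in turn) or, for the claudin to scaffold ratio, the averaging. Only this last changed 2 choices, geometric means with a pseudocount of 0.1 in place of sums with none.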

Additional observations from a re-analysis of the deposited data

How the results depend on the processing

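Over the alternatives every count of passing genes, members and other tight junction genes stayed within 1.5 times its main value. Without single libraries the counts of all genes ranged from 3762 to 4776 for BC44 against HC11, 6554 to 7944 for BC44 against C57MG and 6274 to 7404 for HC11 against C57MG, and members from 3 to 4, 4 to 4 and 5 to 5. The ratio of claudin to scaffold sums moved with geometric means and a pseudocount of 0.1, changed together, from 0.162 to 0.0542 in BC44, from 2.52 to 0.733 in HC11 and from 0.00115 to 0.0532 in C57MG, where the pseudocount sets it. After quantile normalization it was 0.00752 in C57MG. Without C57MG replicate 1 it was 0.000634 there and without replicate 2 0.00166. F11r between BC44 and HC11 changed direction without BC44 replicate 1 (-0.0063) and without HC11 replicate 1 (-0.0046), with at most 0.1209 without any 1 library. Tjp1 between BC44 and C57MG changed direction without BC44 replicate 1 and ranged from -0.2133 to 0.0201. Neither passed in any setting. Of the tested members' calls only that of Cgn between BC44 and HC11 was lost, in 3 of 12 alternatives. The filter at a mean of 5 RPKM left out Cldn1, so it gave no value there.

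The replicate numbers are shared by the lines, and the correlation of same-numbered libraries' deviations was 0.354 for BC44 and HC11, -0.039 for BC44 and C57MG and 0.038 for HC11 and C57MG. Not every pair was over 0.1 and no label ties the numbers to a shared culture or day, so they were not used as pairs. With the replicate block 5350, 7875 and 7721 genes and 4, 4 and 5 members passed, in the order of contrasts given above, as against 5129, 7713 and 7590 genes and 4, 4 and 5 members without it. Depth limits what can be read of Ocln in BC44 and of Cldn1 and Cldn4 in C57MG, which rest on 1 or 2 estimated reads in a library.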
